A study of Mus musculus with 22 samples.

Results

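The adult haemoglobin genes *Hba-a1*, *Hba-a2*, *Hbb-bs* and *Hbb-bt*, together with *Alas2*, were followed through RNA-seq of brain tissue from *Phf8* wild-type (WT) and knockout (KO) mice. These 5 genes were chosen by name and located by their Ensembl identifiers among the 39179 gene identifiers in the count tables. The study sequenced 22 samples: 3 WT and 3 KO samples each of ventral striatum (STR) and prefrontal cortex (PFC), 3 WT and 3 KO cultures of neural progenitor cells (NPCs) from E16.5 embryos, and 2 WT and 2 KO cultures of embryonic stem cells (ESCs). The brain tissue came from mice of 2 months, the labels give the strain background of all samples as B6x129SvJ, and the KO groups carried a *Phf8* allele lacking a pair of exons of the catalytic domain in every cell, derived from V6.5 ESCs. Nothing in the labels told whether the samples of a group were separate animals, so that p-values measure the spread between these samples only. *Phf8*, an X-linked histone demethylase gene, had 41.7 to 57.8 CPM (counts per 1000000 counted reads) in the 6 WT brain samples and 14.8 to 23.7 CPM in the 6 KO brain samples, and no KO value reached a WT value.

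Haemoglobin is the oxygen carrier of red blood cells and is built from alpha-globin and beta-globin chains, each holding a haem group. Adult mice express a pair of nearly identical alpha-globin genes and a pair of nearly identical beta-globin genes, and their transcripts persist in young red cells that have lost the nucleus. *Alas2* encodes the erythroid form of 5-aminolevulinate synthase, the first enzyme of haem synthesis, and lies on the X chromosome. Brain tissue contains blood in its vessels, and low haemoglobin expression has also been described in neurons and glia. In bulk tissue, fewer cells of a type and less RNA per cell cannot be told apart. The beta-globin locus differs between C57BL/6 and 129 mice, and the *Hbb-bs* and *Hbb-bt* gene models are those of the C57BL/6 reference. Which form of the locus each sample carried was not given in the sources used here.

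The members sit at 3 loci of GRCm38. *Hba-a1* (ENSMUSG00000069919, chr11:32283511-32284465) and *Hba-a2* (ENSMUSG00000069917, chr11:32296489-32297298) lie on the plus strand, 12.02 kb apart. *Hbb-bt* (ENSMUSG00000073940, chr7:103812524-103813996) and *Hbb-bs* (ENSMUSG00000052305, chr7:103826534-103828096) lie on the minus strand, 12.5 kb apart. *Alas2* (ENSMUSG00000025270, chrX:150547375-150570638) ends 950 kb before *Phf8* (chrX:151520672-151633859). The coding sequences of the alpha pair, 429 bases each, differ by a single substitution, C381T, which gives the base of *Hba-a1* first, its position counted from 1 at the first base of the start codon, and then the base of *Hba-a2*. Those of the beta pair, 444 bases each, differ by C417T, with the base of *Hbb-bs* first. The stretches of 90 coding bases around each substitution are shown because only this base tells the coding sequences of a pair apart. Capitals mark the substituted base. Reads that reach outside the coding sequence can also be assigned to a copy.
*Hba-a1*: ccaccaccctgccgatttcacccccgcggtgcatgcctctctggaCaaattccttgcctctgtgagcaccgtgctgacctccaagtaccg
*Hba-a2*: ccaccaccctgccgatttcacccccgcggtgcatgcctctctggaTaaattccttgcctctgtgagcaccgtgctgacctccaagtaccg
*Hbb-bs*: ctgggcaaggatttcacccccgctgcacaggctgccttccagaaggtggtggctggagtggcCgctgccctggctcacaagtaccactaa
*Hbb-bt*: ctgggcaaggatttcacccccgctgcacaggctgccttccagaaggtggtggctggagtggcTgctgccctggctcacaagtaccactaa

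Within each pair the coding sequences were 99.77% identical, so most reads from them align equally well to both copies. Such reads were set aside by the counting as not unique, and the counts below are undercounts of these genes. Of the 50-base windows along the annotated transcript, those found in no other gene were 211 of 650 for *Hba-a1*, 66 of 505 for *Hba-a2*, 198 of 579 for *Hbb-bs* and 273 of 654 for *Hbb-bt*. For *Alas2* they were 1713 of 1988. The read length is not given in the sources used here. With windows of 100 bases, 261 windows of *Hba-a1*, 116 of *Hba-a2*, 198 of *Hbb-bs* and 273 of *Hbb-bt* were found in no other gene.

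The promoters are shown as a description of the members, and how they relate to the levels was not tested. The 120 bases before the annotated start of RefSeq on GRCm38.p6 are given 5′ to 3′ on the strand of the gene. They were searched on both strands for 4 motifs: GATA, the core bound by GATA factors, CACCC, the core bound by erythroid Krüppel-like factors, CCAAT, and ATATAA, a form of the TATA box. Capitals mark the matches, read on either strand. *Hba-a1* is not printed, since the 247 bases before its start are also found before the start of *Hba-a2*. The regions lie at chr11:32296372-32296491 (plus strand) for *Hba-a2*, chr7:103827929-103828048 (minus strand) for *Hbb-bs*, chr7:103813924-103814043 (minus strand) for *Hbb-bt* and chrX:150547297-150547416 (plus strand) for *Alas2*.
*Hba-a2*: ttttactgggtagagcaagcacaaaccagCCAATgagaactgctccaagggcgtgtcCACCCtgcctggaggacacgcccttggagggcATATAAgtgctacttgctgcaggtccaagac
*Hbb-bs*: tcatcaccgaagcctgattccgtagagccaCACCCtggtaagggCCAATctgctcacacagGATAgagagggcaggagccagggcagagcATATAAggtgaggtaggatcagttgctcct
*Hbb-bt*: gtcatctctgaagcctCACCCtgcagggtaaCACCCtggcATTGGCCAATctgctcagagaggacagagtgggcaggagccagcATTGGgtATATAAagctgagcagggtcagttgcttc
*Alas2*: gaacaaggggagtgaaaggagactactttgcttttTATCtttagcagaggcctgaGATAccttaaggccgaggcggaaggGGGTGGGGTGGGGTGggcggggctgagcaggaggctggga

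In the 250 bases before the start, all 4 globin promoters held each of the 4 motifs. ATATAA lay 28 to 31 bases before the start in all of them. The *Alas2* promoter held GATA at 2 positions and CACCC at 3, and neither CCAAT nor ATATAA. Of 32851 promoters of the same length, 53.6% held GATA, 52% held CACCC, 33.8% held CCAAT, 9.1% held ATATAA and 1.02% held all 4. A match is a description of the letters in this window and no evidence of binding.

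Between 5898286 and 10148073 reads per brain sample and between 11455757 and 15539811 per culture were counted on genes. At the brain depths a count of 0 allows a level of up to 0.296 to 0.509 CPM, taken as 3 counts, and covering counting error only. STR KO 1 stood apart in its markers: 12 genes of the hypothalamus summed to 314 CPM there. The sum was 63.4 and 85.5 CPM in the other STR KO samples and 46.1 to 52.9 CPM in STR WT. Every STR KO sample thus lay above every STR WT sample in this sum. The labelled regions matched their marker genes, with 10 of 10 genes of striatal projection neurons higher in STR and 8 of 8 genes of cortical projection neurons higher in PFC among WT samples (edgeR, FDR under 0.05).

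Haemoglobin transcripts were detected in all 12 brain samples. The values leave out reads shared by the copies, so they are undercounts and do not give the true level. Together the 4 globin genes held 228 to 466 counts per sample, or 0.00319% to 0.00624% of all counted reads. On the RPKM scale, which divides the CPM by the exonic length in kilobases and allows levels of different genes to be compared, *Hbb-bs* was highest with a mean of 25.8 (range 19.1 to 35.5, n = 12). *Hba-a1* (mean 12.3, range 9.12 to 15.7 RPKM), *Hba-a2* (mean 12.2, range 8.80 to 16.8 RPKM) and *Hbb-bt* (mean 9.40, range 5.56 to 15.9 RPKM) followed, and their ranges overlapped. The lowest *Hbb-bs* sample lay above the highest sample of each of these 3 genes. *Alas2* was lowest, with a mean of 1.36 RPKM (range 0.613 to 2.17), below every value of the globin genes. These RPKM values use the whole exonic length, although the part that can be told apart differs between the copies. Per 50-base window found in no other gene, the counts in a sample were 0.636 to 1.20 for *Hba-a2*, 0.530 to 1.01 for *Hbb-bs*, 0.251 to 0.479 for *Hba-a1* and 0.103 to 0.319 for *Hbb-bt*. On this measure *Hba-a2* and *Hbb-bs* overlapped, and *Hba-a2* lay above *Hba-a1* in range. With 100-base windows *Hba-a2* (0.362 to 0.681) and *Hba-a1* (0.203 to 0.387) overlapped. The order of the 4 genes thus depends on how the shared sequence is treated and on the window length.

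The cultures held almost no globin transcripts. Over all 10 ESC and NPC samples the 4 globin genes held 2 counts in total, 1 on *Hba-a1* and 1 on *Hba-a2*, and neither beta-globin gene was counted in any of them. A count of 0 allows up to 0.193 to 0.262 CPM at these depths. *Alas2* held 22 counts over the 10 cultures, with 0 to 5 per sample and at most 0.425 CPM. Its lowest brain sample, at 1.47 CPM, lay above its highest culture. The cultures and the brain samples also differed in how counts were distributed (below), so no fold change between them is given.

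*Hbb-bs*, an adult beta-globin gene, had 21.1, 19.3 and 22.4 CPM in STR WT 1 to 3 and 20.1, 19.3 and 14.7 CPM in STR KO 1 to 3. In the PFC it had 20.9, 19.6 and 27.3 CPM in WT 1 to 3 and 17.9, 16.8 and 18.7 CPM in KO 1 to 3. The genotypes overlapped in STR, and in the PFC all 3 KO samples lay below all 3 WT samples.

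*Hbb-bt*, the other adult beta-globin gene, had 6.17, 7.84 and 8.55 CPM in STR WT 1 to 3 and 7.50, 4.87 and 3.91 CPM in STR KO 1 to 3. In the PFC it had 6.77, 8.57 and 11.2 CPM in WT 1 to 3 and 4.67, 5.29 and 3.98 CPM in KO 1 to 3. Again the genotypes overlapped in STR and did not overlap in the PFC, where the highest KO sample (5.29 CPM) lay below the lowest WT sample (6.77 CPM).

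*Hba-a1*, an adult alpha-globin gene, had 10.4, 10.9 and 11.5 CPM in STR WT 1 to 3 and 9.70, 10.5 and 7.40 CPM in STR KO 1 to 3. In the PFC it had 9.79, 9.95 and 12.7 CPM in WT 1 to 3 and 10.4, 7.94 and 9.03 CPM in KO 1 to 3. The genotypes overlapped in both regions.

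*Hba-a2*, its near-copy, had 7.91, 9.31 and 10.3 CPM in STR WT 1 to 3 and 7.38, 8.95 and 5.87 CPM in STR KO 1 to 3. In the PFC it had 8.09, 7.79 and 11.2 CPM in WT 1 to 3 and 7.24, 6.73 and 7.17 CPM in KO 1 to 3. The genotypes overlapped in STR and did not overlap in the PFC.

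*Alas2* had 3.14, 2.93 and 3.45 CPM in STR WT 1 to 3 and 2.59, 3.55 and 1.82 CPM in STR KO 1 to 3. In the PFC it had 4.35, 5.22 and 4.24 CPM in WT 1 to 3 and 1.47, 4.45 and 1.99 CPM in KO 1 to 3. PFC KO 2 lay among the WT samples and the other PFC KO samples lay below them. These levels rest on 12 to 53 counts per sample.

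**Figure D1:**
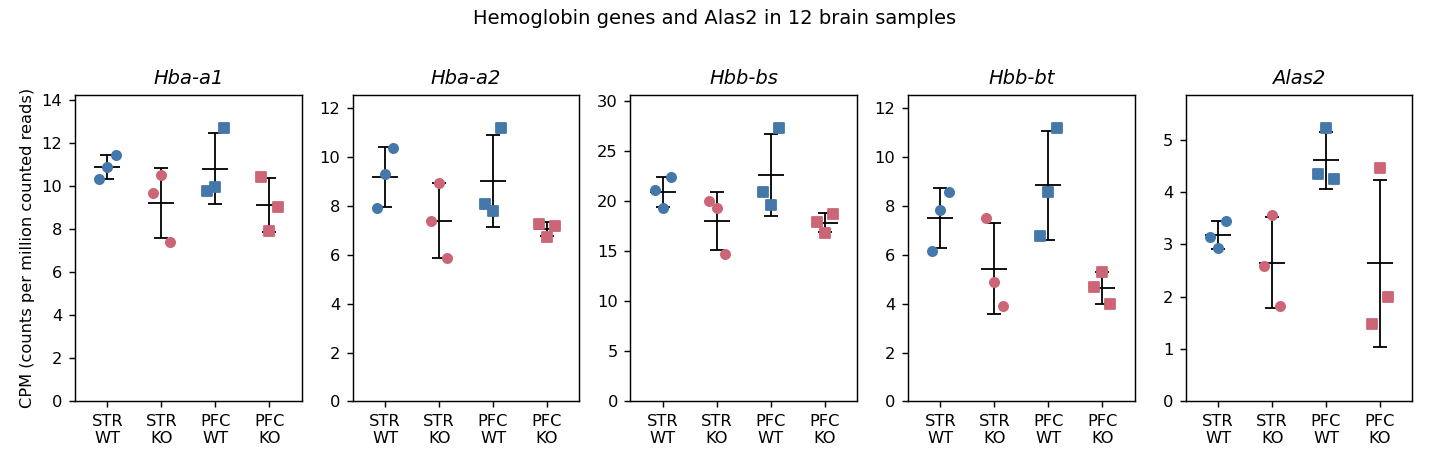
CPM of each gene (y axis, starting at 0, with its own scale per panel) in the 3 samples of each group, with the group mean and SD in black, WT in blue and KO in red, STR as circles and PFC as squares. *Hbb-bt* in the PFC ran from 3.98 to 5.29 CPM in KO samples and from 6.77 to 11.2 CPM in WT samples.

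For all 4 globin genes STR KO 3 was the lowest and PFC WT 3 the highest of the 12 brain samples. From lowest to highest sample the CPM spanned 1.72-fold for *Hba-a1*, 1.91-fold for *Hba-a2*, 1.86-fold for *Hbb-bs* and 2.86-fold for *Hbb-bt*. PFC WT 3 was also the library with the fewest counted reads of all. Its counts of 75 on *Hba-a1*, 66 on *Hba-a2*, 161 on *Hbb-bs* and 66 on *Hbb-bt* were not the highest of any of these genes, and the highest counts were those of PFC WT 2, the deepest brain library.

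KO and WT were compared within each region to ask how loss of *Phf8* relates to these levels. In the PFC the fitted log2 fold changes (KO minus WT) of all 5 members were below 0. *Hbb-bt* had the largest, from 8.84 ± 2.22 CPM in WT to 4.65 ± 0.655 CPM in KO (mean ± SD, n = 3 each), with a log2 fold change of -0.89 (SE 0.22, 95% interval -1.38 to -0.41). It did not pass the threshold after adjustment over all 15364 genes tested (edgeR quasi-likelihood test, unadjusted p = 0.0017, FDR = 0.107). *Alas2*, from 4.60 ± 0.539 to 2.64 ± 1.59 CPM, had a log2 fold change of -0.79 (SE 0.33, 95% interval -1.52 to -0.07, edgeR FDR = 0.386). The other 3 had log2 fold changes of -0.32 for *Hbb-bs* (95% interval -0.64 to 0.00068), -0.32 for *Hba-a2* (-0.74 to 0.09) and -0.22 for *Hba-a1* (-0.60 to 0.16), with edgeR FDRs of 0.446, 0.597 and 0.731.

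Thus 0 of 5 members passed an FDR of 0.05 in the PFC, where 0.475% of all genes tested were called lower in KO. At an unadjusted p under 0.05, 2 of 5 members were lower, beside 6.5% of all genes tested. The call on *Hbb-bt* depended on the test: edgeR's exact test (FDR = 0.0146), its likelihood ratio test (FDR = 0.0143) and the quasi-likelihood test without a filter on low counts (FDR = 0.0112) each called it, with 1.56%, 1.61% and 1% of all genes called lower. DESeq2 gave an adjusted p of 0.0829 for *Hbb-bt* and none for *Alas2*. It called 0 of the members that had an adjusted p, beside 0.859% of all genes lower. In 3 of 5 members (*Hba-a2*, *Hbb-bs* and *Hbb-bt*) every KO sample lay below every WT sample, which held for 9.78% of all genes tested, and these members were read from the same 6 samples. Without PFC WT 3, the log2 fold changes were -0.70 for *Hbb-bt* (edgeR FDR = 0.145), -0.16 for *Hbb-bs*, -0.15 for *Hba-a2* and -0.09 for *Hba-a1*. That of *Alas2* was -1.40 without PFC KO 2 (edgeR FDR = 0.148), -0.50 without PFC KO 1 (FDR = 0.809) and -0.64 without PFC KO 3 (FDR = 0.804).

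In STR the fitted log2 fold changes of all 5 members were also below 0, and none was beyond the spread between samples. They were -0.46 for *Hbb-bt* (SE 0.27, 95% interval -1.05 to 0.14), -0.30 for *Hba-a2* (-0.76 to 0.16), -0.25 for *Alas2* (-0.90 to 0.41), -0.23 for *Hba-a1* (-0.63 to 0.16) and -0.21 for *Hbb-bs* (-0.52 to 0.11). The edgeR FDRs ran from 0.684 to 0.872, and 0 of 5 members had an unadjusted p under 0.05. DESeq2 and edgeR's exact and likelihood ratio tests called 0 of 5 members as well, beside 0.0969%, 0.136% and 0.123% of all genes called lower. Of all 15476 genes tested in STR, 0 were called lower by the quasi-likelihood test and 3.02% had an unadjusted p under 0.05 and were lower. No member had KO and WT samples that did not overlap, beside 6.03% of all genes tested with every KO sample below every WT sample. Without STR KO 3, the lowest sample, the log2 fold changes lay between -0.29 (*Hbb-bt*) and -0.06 (*Alas2*). Without STR KO 1, the sample highest in hypothalamic genes, that of *Hbb-bt* was -0.76 (edgeR FDR = 0.917). Without STR KO 2, that of *Alas2* was -0.50 (edgeR FDR = 0.542).

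A log2 fold change below 0 in both regions, as all 5 members had, was found for 33% of the 14954 genes tested in both. In the PFC 55.9% and in STR 49.4% of the genes tested there were below 0. The median log2 fold change of the members was -0.32 in the PFC and -0.25 in STR, beside -0.02 and 0.0020 over all genes tested. The effects in both regions were not shown to differ. The difference between them (STR effect minus PFC effect) was 0.52 for *Alas2* (95% interval -0.50 to 1.54), 0.42 for *Hbb-bt* (-0.35 to 1.19) and between -0.04 and 0.09 for the other 3, with edgeR FDRs of at least 0.986. Leaving out 1 sample moved the difference of *Alas2* to between 0.25 (without PFC KO 1) and 1.14 (without PFC KO 2) and that of *Hbb-bt* to between 0.13 (without STR KO 1) and 0.60 (without STR KO 3). None of the 5 had an unadjusted p under 0.05 for this difference, and 0 were called by edgeR or DESeq2. The quasi-likelihood test called 0.00624% of all genes with a difference below 0. The share called above 0, where 4 of the 5 members lay, and the shares for DESeq2 are not given here.

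**Figure D2:**
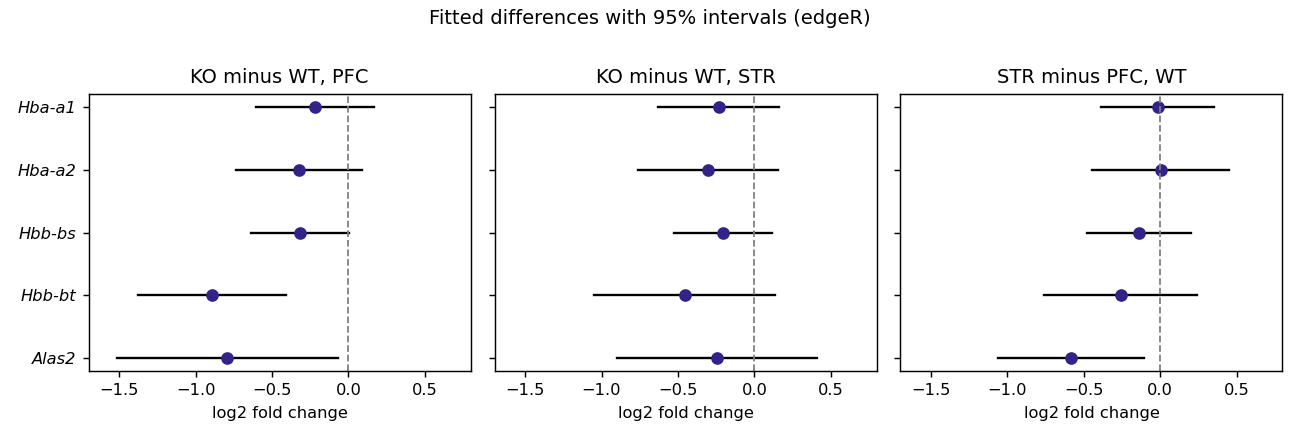
Fitted log2 fold changes (x axis) of the 5 genes for KO minus WT in PFC, KO minus WT in STR and STR minus PFC in WT, with bars for the 95% intervals of the edgeR quasi-likelihood fit and a dashed line at 0. The intervals of *Hbb-bt* and *Alas2* in the PFC (upper ends -0.41 and -0.07) lay below 0, and the 5 intervals for STR all crossed it.

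The regions were compared in WT samples. *Alas2* was 3.17 ± 0.264 CPM in STR and 4.60 ± 0.539 CPM in PFC (n = 3 each), and the samples of the regions did not overlap. Its log2 fold change (STR minus PFC) was -0.58 (SE 0.21, 95% interval -1.06 to -0.11) and did not pass the threshold (edgeR FDR = 0.0751). The 4 globin genes had log2 fold changes of -0.26 for *Hbb-bt* (95% interval -0.76 to 0.24), -0.14 for *Hbb-bs* (-0.48 to 0.20), -0.02 for *Hba-a1* (-0.38 to 0.35) and 0.0035 for *Hba-a2* (-0.44 to 0.45). Leaving out 1 sample gave -0.42 (without PFC WT 1) to -0.07 (without PFC WT 3) for *Hbb-bt*. In all, 0 of 5 members passed, and 1 had an unadjusted p under 0.05. DESeq2 and edgeR's exact and likelihood ratio tests called 0 of 5 too, beside 12.5%, 14.3% and 14.6% of all genes called lower. Of all 15555 genes tested, 13% were called lower in STR, 18.3% had an unadjusted p under 0.05 and were lower, and 17.1% had every STR sample below every PFC sample. In KO samples the log2 fold change of *Alas2* between the regions was -0.05 (edgeR FDR = 0.947), and there the samples overlapped.

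The balance between the copies was also followed, as ratios of counts within a sample. *Hba-a1* made up 52.5% to 59.0% of the counts of the alpha pair in the 12 brain samples, with group means of 54.4% ± 2.11 in STR WT, 55.5% ± 1.40 in STR KO, 54.7% ± 1.46 in PFC WT and 56.3% ± 2.51 in PFC KO (SD, n = 3 each). The groups overlapped. The beta pair held 1.24 to 1.61 counts for each count of the alpha pair. In the PFC this ratio was 1.58 ± 0.0319 in WT and 1.40 ± 0.115 in KO, and in STR it was 1.42 in both genotypes (SD 0.0742 in WT and 0.186 in KO). The genotypes did not overlap in this ratio in the PFC and overlapped in STR. The ratio holds the counts of *Hbb-bt*, so it is not separate from the PFC values above. In CPM, 9.78% of all genes tested in the PFC had every KO sample below every WT sample. No such share was worked out for ratios within a sample, nor a counting error for this ratio.

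The share of *Hbb-bt* in the beta pair varied more. In the PFC it was 24.5%, 30.4% and 29.1% in WT 1 to 3 and 20.7%, 23.9% and 17.5% in KO 1 to 3, with means of 28.0% ± 3.13 and 20.7% ± 3.19. In STR it was 22.7%, 28.9% and 27.7% in WT 1 to 3 and 27.2%, 20.1% and 21.1% in KO 1 to 3, with means of 26.4% ± 3.32 and 22.8% ± 3.87. The genotypes did not overlap in the PFC, by less than 1 percentage point, and overlapped in STR. Each share carries a wide counting error: the 95% interval (Wilson) was 19.3% to 30.4% in PFC WT 1 and 18.3% to 30.6% in PFC KO 2, the closest pair. With 3 samples against 3, an exact permutation test cannot give a two-sided p below 0.1. Among WT samples the order of the replicate numbers by this share was the same in both regions (1 lowest, 2 highest), and among KO samples it was not.

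**Figure D3:**
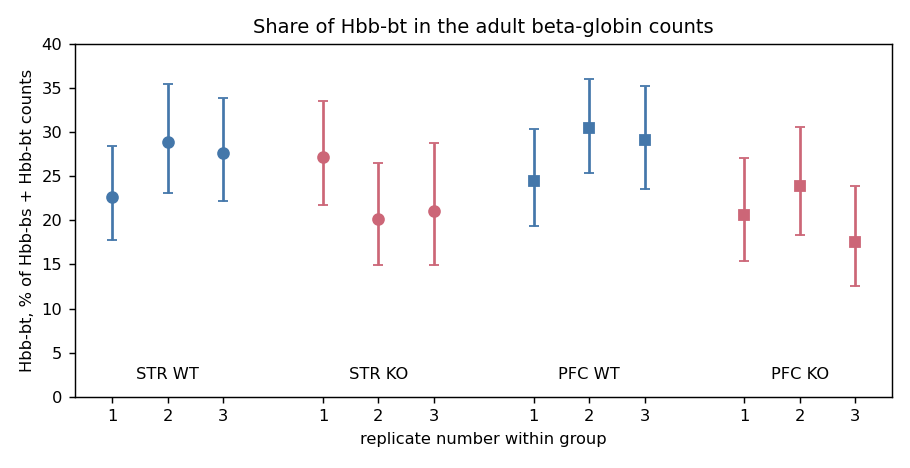
*Hbb-bt* counts as a percentage of the *Hbb-bs* and *Hbb-bt* counts (y axis, starting at 0) in each of the 12 brain samples, with bars for the 95% Wilson interval, WT in blue and KO in red. The shares ran from 17.5% in PFC KO 3 to 30.4% in PFC WT 2, and the intervals of neighbouring samples overlap widely.

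How counts grew with depth bears on every CPM value above. Across the 12 brain samples the slope of log count on log depth was 0.65 for *Hba-a1*, 0.38 for *Hba-a2*, 0.57 for *Hbb-bs*, 0.62 for *Hbb-bt* and 1.63 for *Alas2*, where counts in proportion to depth give 1. Over the 13939 genes with at least 10 counts in every sample the median slope was 1.10. It was 1.33 for genes with at most 0.05 counts per exonic base and fell with the density of counts to 0.32 for the 39 genes above 1 count per base. *Hba-a1* (0.0963 counts per base), *Hba-a2* (0.0951) and *Hbb-bt* (0.0733) lay among genes over 0.05 to 0.1, with a median slope of 1.17. *Hbb-bs* (0.201) lay among genes over 0.2 to 0.5, with a median of 0.84. Each globin slope was thus below the median of genes of like density, and that of *Alas2* (0.0108) was above it. The spread around these medians is not given here, and the cause was not tested. *Fth1*, the gene of ferritin heavy chain, held 1239 to 1427 counts in every brain sample whatever its depth.

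The highest density of counts on any gene over 500 exonic bases was 1.75 to 1.81 counts per base in all 12 brain samples, on the mitochondrial gene *mt-Cytb*. In the 10 cultures it was 34.9 to 85.7, on *mt-Co1*. A library in which each start position on each strand is counted once cannot exceed 2 counts per base. Whether repeated reads were removed from the brain libraries is not given in the sources used here, and the part of this limit in the globin values was not tested. With counts left unscaled by depth, the log2 fold changes in the PFC were -0.90 for *Hbb-bt* and -0.83 for *Alas2*. They were -0.32 for *Hbb-bs*, -0.33 for *Hba-a2* and -0.23 for *Hba-a1*. In this fit 0 of 5 were called (edgeR FDR = 1 for each). The share of all genes called in it is not given here, so this count says nothing about the members in particular.

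**Figure D4:**
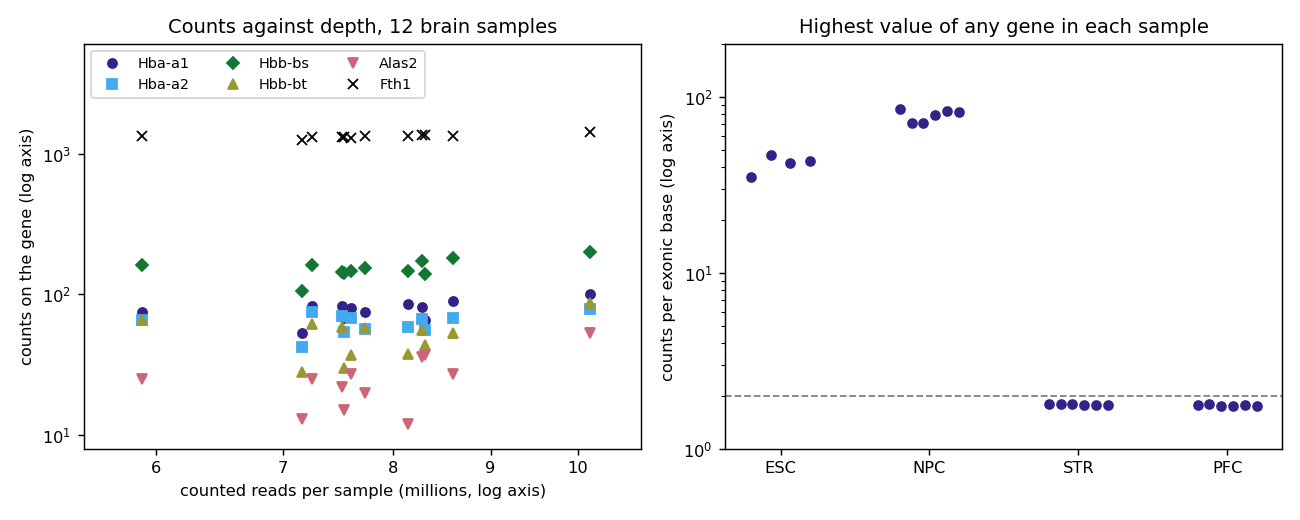
Left, counts on the 5 genes and on *Fth1* (y axis, log) against the depth, as counted reads per sample (x axis, log) for the 12 brain samples. Right, the highest number of counts per exonic base of any gene over 500 bases in each sample of each tissue (y axis, log), with a dashed line at 2. The brain samples sat at 1.75 to 1.81 and the cultures at 34.9 to 85.7.

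The genes whose levels followed the globins most closely were found by correlating each of 16028 genes with the summed level of the 4 globin genes on the log2(CPM + 0.5) scale over the 12 brain samples. With group means subtracted, *Nsfl1c* (Pearson r = 0.95), *Nrbp1* (0.95), *Hspb2* (0.94) and *Atp1b3* (0.94) were among the most alike. The value of *Hspb2* rests on few counts, since its mean was 0.985 CPM over the brain samples. As measured, the most alike were *Ssna1* (0.92), *Rex1bd* (0.91), *Ahcyl1* (0.90), *Spr* (0.88) and *Nrbp1* (0.88). None of the genes named here is in the erythroid list. *Alas2* correlated with the globin sum at 0.11 with group means subtracted and at 0.51 as measured. The points share libraries and depth, and the correlations are given as a description.

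Other globin genes were near 0 or had other patterns. The embryonic genes *Hba-x*, *Hbb-bh1* and *Hbb-bh2* were at 0 in every brain sample, and *Hbb-y* held 6 counts over the 12 samples. The theta-globin genes *Hbq1a* and *Hbq1b* held 49 and 8 counts, and *Mb*, myoglobin of muscle, held 49. *Cygb*, cytoglobin, had 82.4 to 115 CPM. *Ngb*, neuroglobin, a globin of neurons, had 5.92 to 64.3 CPM and was highest in STR KO 1. Of these 9 genes 2 could be tested: *Ngb* was higher in STR than in PFC among WT samples (log2 fold change 1.54, SE 0.27, edgeR FDR = 0.00178), and neither *Ngb* nor *Cygb* was called between KO and WT.

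Haem synthesis enzymes other than *Alas2* are used by every cell. *Alas1*, the form of the first enzyme outside erythroid cells, had a mean of 80.7 CPM in brain, *Fech*, which inserts iron to complete haem, 88.0 CPM and *Alas2* 3.27 CPM. None of the 9 genes passed the test between KO and WT in either region. Between regions in WT, *Cpox*, coproporphyrinogen oxidase, was lower in STR (log2 fold change -0.41, SE 0.08, edgeR FDR = 0.00342).

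Genes of the red cell lineage were mixed in brain, some at or near 0 and others well counted. Over the 12 samples *Gata1* and *Klf1*, transcription factors of the lineage, held 1 and 36 counts, and the membrane genes *Rhag*, *Kel*, *Epb42* and *Slc4a1* held 1, 0, 3 and 13. *Hemgn* and *Car1* held 3 and 4. Other erythroid genes were counted in every brain sample. *Tal1*, also a transcription factor of the lineage, held 282 counts, *Gypc* 271, *Ermap* 176, *Epor* 1716 and *Ank1* 8739. Of 30 erythroid genes 29 were in the tables and 15 were tested, and 0 of these were called between KO and WT in either region (5 above and 10 below 0 in the PFC, 8 above and 7 below in STR). Those tested included genes with high levels in brain, such as *Sptb* (279 CPM) and *Tmcc2* (217 CPM). Between regions, *Epor* (log2 fold change 0.40, edgeR FDR = 0.0441) and *Sptb* (0.41, FDR = 0.00844) were higher in STR, and *Ank1* (-0.55, FDR = 0.00541) and *Gypc* (-1.39, FDR = 0.00738) were lower.

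Genes of vessel cells are given beside the PFC values of the globins because blood lies in vessels. Of 20 endothelial genes 19 had log2 fold changes below 0 in the PFC, with a median of -0.28, and 1 was called, *Vwf*, which encodes von Willebrand factor (-0.76, SE 0.15, edgeR FDR = 0.0494). Their summed level was 877 to 1043 CPM in PFC WT and 747 to 872 CPM in PFC KO, and none of the 20 was at 0 in a group. All 13 genes of mural cells, which wrap vessels, were below 0 in the PFC, with a median of -0.24, and 0 were called. They summed to 347 to 413 CPM in PFC WT and 305 to 363 CPM in PFC KO. In STR the endothelial median was -0.09 and the mural median 0.0058, and 0 were called. Genes of oligodendrocytes moved in the PFC too: 5 of 8 were called lower (*Mal*, *Mobp*, *Mag*, *Opalin* and *Mog*), their median was -0.59, and they summed to 2079 to 2677 CPM in WT and 1669 to 1760 CPM in KO. Of all genes tested in the PFC, 55.9% were below 0 and 0.475% were called lower. The part of these cell types in the globin values was not tested.

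Genes of other blood cells were sparse. Of 20 genes of white cells and platelets, 4 could be tested in the PFC and 3 in STR, and 0 were called between KO and WT. They summed to 23.9 to 32.9 CPM in PFC WT, 23.7 to 27.1 CPM in PFC KO, 33.5 to 39.7 CPM in STR WT and 24.2 to 34.9 CPM in STR KO. Among them *Gp1bb*, also expressed outside platelets, had the highest mean (15.3 CPM) and was the 1 gene called between regions (log2 fold change 0.48, STR minus PFC, edgeR FDR = 0.0217). *Alas2* lies near *Phf8* on the X chromosome, and of the 24 genes between them 10 could be tested. None was called between KO and WT in either region, and their median log2 fold change was 0.05 in the PFC and 0.21 in STR, where that of *Alas2* was -0.79 and -0.25. *Tro* was called higher in STR than in PFC (0.33, edgeR FDR = 0.0104).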

How the data were processed

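RNA of 22 samples was sequenced on an Illumina HiSeq instrument from TruSeq libraries. The authors used STAR for alignment to GRCm38 and HTSeq, with gene models of Ensembl release 75, for counting, and deposited 1 table of unnormalized counts for each sample. The submitters' processing notes also name CASAVA 1.7. The versions of STAR and HTSeq, the strand setting and the read length are not given in the sources used here. Reads set aside as not unique were 7.62% to 8.90% of each brain table and 33.2% to 45.5% of each culture, and HTSeq's summary rows were left out of library sizes. Of 39179 identifiers, 37607 matched the GENCODE annotation used here for names and lengths, holding 99.71% of the counts. CPM and RPKM were computed here from these counts.

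Groups came from the labels. Comparisons used edgeR 4.0.16 in R 4.3.3 over all genes that passed its expression filter (robust quasi-likelihood test, TMM, Benjamini-Hochberg FDR under 0.05), with no replicate block. SE was the log2 fold change divided by the root of the F statistic. Alternatives were DESeq2 1.42.0, the exact and likelihood ratio tests, RLE factors, no robust estimation, no filter, a filter of 10 counts in each sample, a log2 fold change beyond 1, the replicate number as a block, other sample sets and each sample left out. The pipeline was tested on simulated data. Python 3.11.15 was used for levels and sequences.

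The labels give the same replicate numbers to each group. Deviations from group means correlated at -0.038 to 0.040 between same-numbered KO and WT samples in the PFC and -0.023 to 0.128 in STR, so these numbers do not pair samples. Between regions they correlated at 0.174 to 0.352 in WT and 0.135 to 0.169 in KO, above 0.1 in every pair, so the numbers were taken to pair the regions. That the regions come from the same animals is not stated in the labels.

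The genes named are the members, the other globin, haem synthesis and erythroid genes, genes of further lists that passed a test or had the highest means, genes between *Alas2* and *Phf8* that passed, and the genes most alike. A few genes that this rule names are not reported here. The members, lists and tests were chosen with earlier results of these data known.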

Additional observations from a re-analysis of the deposited data

How the results depend on the processing

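In the comparisons of KO with WT, all 5 members kept a log2 fold change below 0 in each of the 80 refits per region, which cover 16 alternatives. The refits use the same samples, so a shared sign is no replication. The count of members called in the PFC was 0 and became 1, *Hbb-bt*, with edgeR's exact test (log2 fold change -0.90), its likelihood ratio test (-0.90) and no filter on low counts (-0.89). The cause was not tested. It was 0 under every other alternative run there, and 0 under all those run in STR, between regions and for genotype by region, leaving out each sample included. A log2 fold change beyond 1 as well left 0. With the replicate number as a block 0 members were called in each comparison: *Hbb-bt* in the PFC was at -0.88 (FDR = 0.0939) and *Alas2* between regions, where the numbers were taken to pair the samples, had an FDR of 0.0591. A block for the animal in the fit of genotype by region, and counts not scaled to depth, were added after seeing the data. With the former 0 members were called. DESeq2 gave no adjusted p for *Alas2* in the PFC, which is left as such.

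Some values, many of them close to 0, changed sign under some alternatives, none of them called. Between regions in WT, *Hba-a2* was at -0.0091 with DESeq2, -0.0044 with RLE factors and -0.0096 with no filter. *Hbb-bt*, at -0.26 in WT samples, was at 0.17 in KO samples. Leaving out 1 sample gave -0.12 to 0.18 for *Hba-a2*, -0.095 to 0.12 for *Hba-a1* and -0.26 to 0.019 for *Hbb-bs*. For genotype by region, *Hba-a2* was at -0.0019 with the likelihood ratio test, -0.024 with counts not scaled to depth and -0.0018 with the animal block. Leaving out 1 sample gave -0.18 to 0.14 for *Hba-a2*, -0.17 to 0.093 for *Hba-a1* and -0.071 to 0.22 for *Hbb-bs*. In total 24 of 350 refitted values changed sign.

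Depth limits these genes to 12 to 199 counts per sample, and reads shared by the near-identical copies are missing from the globin counts. The part of the ceiling on counts per base was not tested. With 3 samples a group, a p that missed the threshold does not show that levels were alike.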

Other observations

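The lists of other cell types were read for the same 12 samples. Genes of leptomeningeal fibroblasts, cells of the membranes around the brain, were lower in STR than in PFC among WT samples for 7 of 12 (*Dcn*, *Aebp1*, *Ogn*, *Slc22a6*, *Lum*, *Igfbp2* and *Igf2*; edgeR FDR under 0.05), and 0 were called between KO and WT. Of all genes tested between regions, 13% were called lower in STR. The summed level of these 12 genes was 405 CPM in 1 STR KO sample and 115 to 192 CPM in the other 5 STR samples. Of 14 genes of haemoglobin clearance and iron, 12 were tested and 0 were called between KO and WT. *Cd163*, the macrophage receptor for haptoglobin and haemoglobin complexes, was higher in STR (log2 fold change 2.23, SE 0.26, edgeR FDR = 0.000144). Of 13 genes of hypoxia and erythropoietin, 0 were called between KO and WT, and *Pdk1*, *Adm* and *Egln3* were lower and *Ankrd37* higher in STR. None of 6 microglia genes was called in any comparison. Of the 12 choroid plexus genes, *Otx2*, *Clic6* and *Kl* were higher and *Enpp2* was lower in STR, and of the 12 hypothalamus genes *Nkx2-1* and *Trh* were higher in STR. None of those tested was called between KO and WT.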
